A study of Homo sapiens with 6 samples.

Results

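The genes described here are 34 genes of mitosis: the kinases, cyclins, kinesins, kinetochore proteins, spindle proteins and cytokinesis proteins with which a cell divides its chromosomes. They were chosen by name and found by their symbols, and all 34 were present among the 17211 genes of the deposited table. The libraries are poly(A) RNA-seq of CAOV2, an established human ovarian cancer cell line whose sample titles also call the cells primary. The siYAP group (3 libraries) had been transfected with an siRNA reagent against YAP, and the siNT group (3 libraries) with a non-targeting siRNA. Both groups received 100 pmol of siRNA with a lipid reagent for 2 days and were collected at day 3. The siRNA against YAP and the control siRNA came from different suppliers, so reagent and group cannot be told apart. The labels call the libraries biological replicates without saying whether they were separate cultures, so the p-values describe only how these libraries vary, which may be technical.

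Each value is the read count of a gene over its library's size factor, called a normalized count here, and values of single libraries are given in the order of replicates 1, 2 and 3. The recovered whole reads came to between 25478595 and 31790340 per library. YAP1, the targeted gene, had 278, 327 and 294 normalized counts in siYAP cells, against 6221, 5801 and 5955 in siNT cells. It was thus at 5.00% of its siNT level in the cells labelled siYAP. Of the markers looked up for the labelled tissue, 8 of 9 were in the table, with the keratin genes KRT7, KRT18 and KRT8 abundant and PAX8 and MUC16 at low levels. Their summed level, mostly that of the keratin genes, was 61814 to 66946 normalized counts in siYAP cells and 83314 to 90175 in siNT cells. The single markers went both ways. KRT7 (log2 -0.97), MECOM (log2 -0.94) and KRT18 (log2 -0.68) were called lower in siYAP cells. EPCAM (log2 0.74) and CRABP2 (log2 0.90) were called higher, and KRT8, PAX8 and MUC16 were not called. Immune markers (3 of 5 in the table) summed to 62.5 to 71.3 normalized counts in siYAP cells and 142.6 to 144.5 in siNT cells. Fibroblast markers (5 of 6) summed to 14282 to 14787 in siYAP cells and 5605 to 6388 in siNT cells, carried by LUM and COL3A1. Within that list the collagen gene COL1A2 was low, with means of 1.25 in siYAP cells and 12.6 in siNT cells, and was called lower. The endothelial marker ESAM (1 of 4) was at 1261 to 1339 in siYAP cells and 1673 to 1873 in siNT cells. Their part in the results below was not tested.

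Mitosis is driven by CDK1 bound to a B-type cyclin, and the Polo and Aurora kinases, the spindle checkpoint and the anaphase-promoting complex order the steps that follow. Transcripts of these genes are made mainly late in the cell cycle, when the MuvB complex, with B-MYB and later FOXM1, activates promoters that carry a short sequence called the cell cycle genes homology region (CHR), often with CCAAT boxes bound by NF-Y. The level of such transcripts in a culture therefore depends on how many of its cells are in that part of the cycle and on how much RNA each of them holds. In bulk RNA these cannot be told apart.

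The promoter windows of 4 genes are shown because the genes stand at different points of the response: the kinase gene PLK1 and the kinesin gene KIF2C fell, the proliferation marker MKI67 was not called, and the checkpoint gene BUB1B was called higher. Each window runs 5′ to 3′ on the strand of the gene, from 250 bases before to 50 after the start (RefSeq, GRCh38.p14), and capitals mark CHR elements (TTTGAA or, read on the other strand, TTCAAA) and CCAAT boxes (CCAAT or ATTGG).
PLK1, chr16:23678639-23678938, plus strand: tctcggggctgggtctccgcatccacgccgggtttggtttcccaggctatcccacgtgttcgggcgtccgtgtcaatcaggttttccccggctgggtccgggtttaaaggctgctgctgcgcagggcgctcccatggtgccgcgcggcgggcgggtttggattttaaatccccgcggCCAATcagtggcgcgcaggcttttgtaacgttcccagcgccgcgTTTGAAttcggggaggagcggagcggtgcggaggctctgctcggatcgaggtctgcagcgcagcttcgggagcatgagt
KIF2C, chr1:44739587-44739886, plus strand: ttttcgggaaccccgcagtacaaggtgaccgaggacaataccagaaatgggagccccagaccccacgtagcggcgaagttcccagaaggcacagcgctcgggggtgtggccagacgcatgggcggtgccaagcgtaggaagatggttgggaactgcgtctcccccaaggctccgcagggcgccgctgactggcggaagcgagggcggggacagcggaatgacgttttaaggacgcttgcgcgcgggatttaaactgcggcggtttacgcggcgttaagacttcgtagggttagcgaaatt
MKI67, chr10:128126374-128126673, minus strand: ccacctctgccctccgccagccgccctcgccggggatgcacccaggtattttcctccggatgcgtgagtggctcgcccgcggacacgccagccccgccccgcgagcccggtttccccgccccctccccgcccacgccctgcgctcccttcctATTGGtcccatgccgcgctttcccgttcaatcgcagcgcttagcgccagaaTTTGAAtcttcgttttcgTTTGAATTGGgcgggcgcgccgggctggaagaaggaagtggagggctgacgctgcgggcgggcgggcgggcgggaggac
BUB1B, chr15:40160819-40161118, plus strand: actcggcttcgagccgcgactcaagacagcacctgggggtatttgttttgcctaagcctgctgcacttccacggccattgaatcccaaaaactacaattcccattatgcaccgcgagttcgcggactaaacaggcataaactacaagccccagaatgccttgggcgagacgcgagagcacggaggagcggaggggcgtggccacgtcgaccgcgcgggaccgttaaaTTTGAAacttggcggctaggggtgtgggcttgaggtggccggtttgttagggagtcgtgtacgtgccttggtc

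PLK1 holds a CHR element that begins at -29 from its start and a CCAAT box at -73. MKI67 holds 2 CHR elements, at -47 and -29, of which the second shares a base with a CCAAT box at -24. BUB1B holds a CHR element at -23 and no CCAAT box, and the KIF2C window holds neither motif in the spellings searched. Over the members with a window in the table (28 of 34), 21 genes (75.0%) had a CHR element in at least 1 window, against 13.9% of the 11722 genes of the expression table that have a window. A CCAAT box was present in 22 members (78.6%), against 42.4% of those genes, and both motifs in 17 members, against 7.40%. Of the 21 members with a CHR element, 18 were lower in siYAP cells, 1 was higher and 2 were not called, with a median log2 fold change of -0.28. Of the 7 without one in the spellings searched, 5 were lower and 2 were not called, with a median of -0.25. Over all genes tested, 28.1% were called lower and 28.6% higher. Among genes with a mean at or above that of the lowest member, 40.8% were lower and 30.9% higher. Call shares of all genes with and without a CHR element were not computed. Among members with a window, the medians with and without the element were thus close to each other. These medians leave out the members without a window. Those were UBE2C (log2 -0.69), TPX2 (log2 -0.67), AURKA (log2 -0.47), BIRC5 (log2 -0.42), TTK (log2 -0.23) and FOXM1 (log2 -0.105). Only the spellings TTTGAA and TTCAAA were searched for, so a member counted as without a CHR element may hold a variant of it. A match anywhere in the window was counted, so a counted element may also be a match of the letters alone. Whether the fall depends on the element was not tested.

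Most mitosis genes were somewhat lower in siYAP cells. By limma over all 17200 genes tested (adjusted p under 0.05), 29 of the 34 members were called lower (85.3%), 1 was called higher and 4 were not called. Over all genes tested, 28.1% were called lower and 28.6% higher. Among the 8336 genes whose mean was at or above that of the lowest member, the shares were 40.8% lower and 30.9% higher. In 27 members all 3 siYAP libraries lay below all 3 siNT libraries, in 1 they lay above and in 6 the groups overlapped. Over all genes tested, 30.6% lay below and 30.9% above. Of the 8336 genes at or above the mean of the lowest member, 3516 lay below and 2693 above. The counts by role given below are of few genes each and are to be read beside these shares. The falls were mostly modest: the median log2 fold change of the members was -0.29, against 0.0036 over all genes tested, and 6 of the 34 were called with a log2 fold change of -0.5 or less, against 9.41% of all genes tested. When libraries were scaled to equal totals, 62.1% of all called genes were higher in siYAP cells, against 50.4% with the deposited size factors. On that scale 24 members were called lower and 1 higher.

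**Figure D1:**
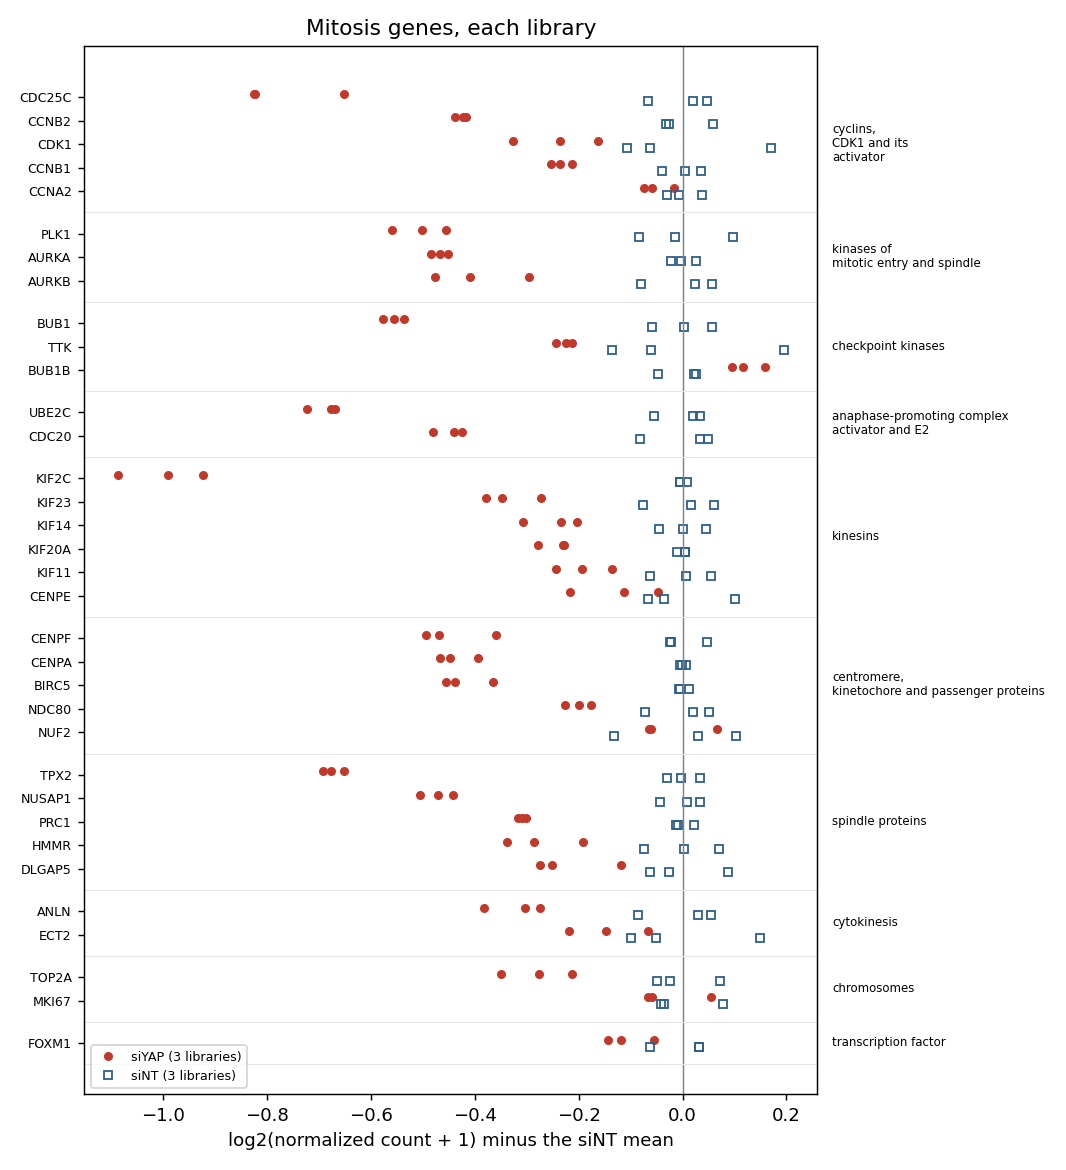
Each row is a gene, grouped by role, and each point is a library, placed at its log2(normalized count + 1) minus the mean of the 3 siNT libraries (red circles siYAP, blue squares siNT). The siYAP points lie left of the siNT points in 27 genes, right of them in BUB1B, and among them in 6.

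Among the genes that start mitosis, the CDK1 activator fell most. CDC25C, the phosphatase that removes inhibitory phosphates from CDK1, had 381, 380.0 and 429 normalized counts in siYAP cells, against 684, 643 and 696 in siNT cells. All 3 siYAP libraries were lower than the siNT libraries, and the gene stood at 58.8% of its siNT level (log2 fold change -0.77, SE 0.0720, limma adjusted p = 6.66e-09). It had the fewest reads of the members, 385 in its lowest library.

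The cyclins moved unequally. CCNB2, the B-type cyclin of the Golgi and cytoplasm, had 3203, 3172 and 3219 normalized counts in siYAP cells, against 4470.2, 4199 and 4219 in siNT cells. CCNB1, the main mitotic cyclin, had 4923, 4846 and 4785 normalized counts in siYAP cells, against 5725, 5552 and 5844 in siNT cells. Both groups of libraries were separate for each gene, with CCNB2 at 74.4% and CCNB1 at 85.0% of the siNT level (log2 -0.43 and log2 -0.23). CCNA2, the cyclin of S phase and early mitosis, was not called, at 3762, 3720.1 and 3869 normalized counts in siYAP cells, against 4021, 3896 and 3833 in siNT cells (log2 fold change -0.05, SE 0.0439, limma adjusted p = 0.352), and its groups overlapped. CDK1 itself had 4023, 4287 and 4511 normalized counts in siYAP cells, against 5679, 4684 and 4831 in siNT cells. The siYAP libraries were all lower, though siNT replicate 1 stood well above the other siNT libraries (log2 fold change -0.24, SE 0.0597, limma adjusted p = 0.00151). Without that library the fall was smaller and still called (-0.16, adjusted p = 0.00366), likewise with equal totals (-0.15, adjusted p = 0.039), and the call was lost in limma without the variance trend and robust fit (adjusted p = 0.0777).

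All 3 kinases of mitotic entry and the spindle were called lower, as were 28.1% of all genes tested. PLK1, the Polo kinase that acts from entry to cytokinesis, had 5086, 4927 and 4736 normalized counts in siYAP cells, against 6584, 6902 and 7463 in siNT cells (log2 fold change -0.50, SE 0.0484, limma adjusted p = 9.21e-09). AURKA, the Aurora kinase of the centrosome and spindle poles, had 4922, 4812 and 4871 normalized counts in siYAP cells, against 6856, 6624 and 6713 in siNT cells (log2 fold change -0.47, SE 0.0414, limma adjusted p = 2.67e-09). AURKB, the Aurora kinase of the chromosomal passenger complex, had 4049.8, 3746 and 3575 normalized counts in siYAP cells, against 4701, 5168 and 5056 in siNT cells (log2 fold change -0.39, SE 0.0509, limma adjusted p = 8.24e-07). None of the siYAP values reached the siNT values, and these genes were at 70.4%, 72.3% and 76.2% of their siNT levels.

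The checkpoint kinases split. BUB1, the kinase that recruits checkpoint proteins to kinetochores, fell to 68.0% of its siNT level, with 4624, 4501 and 4564 normalized counts in siYAP cells, against 6974, 6442 and 6718 in siNT cells (log2 fold change -0.56, SE 0.0436, limma adjusted p = 3.62e-10). Its relative BUB1B, which encodes BUBR1 of the mitotic checkpoint complex, was the only member called higher, with 4524, 4595 and 4731 normalized counts in siYAP cells, against 4301, 4101 and 4310.4 in siNT cells (log2 fold change 0.12, SE 0.0438, limma adjusted p = 0.0199). Its siYAP libraries lay above the siNT libraries by a small margin, and the call was lost without the variance trend and robust fit (adjusted p = 0.066), without siYAP replicate 2 (0.13, adjusted p = 0.0641), without siYAP replicate 3 (0.11, adjusted p = 0.0803) and without siNT replicate 2 (0.10, adjusted p = 0.101). TTK, the MPS1 kinase that starts checkpoint signalling, had 943, 955 and 963 normalized counts in siYAP cells, against 1279, 1071 and 1016 in siNT cells (log2 fold change -0.23, SE 0.0688, limma adjusted p = 0.00754). The siYAP libraries were nearly equal to each other and all lower, whereas siNT replicate 1 was high, and without that library the call was lost (-0.13, adjusted p = 0.0655). TTK also lost the call with equal totals (-0.14, adjusted p = 0.103) and without the variance trend and robust fit (adjusted p = 0.0961).

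Both members that work with the anaphase-promoting complex, the ubiquitin ligase that ends mitosis, fell. UBE2C, its initiating E2 enzyme, had 4669, 4645 and 4497 normalized counts in siYAP cells, against 7147, 7525 and 7597 in siNT cells (log2 fold change -0.69, SE 0.0430, limma adjusted p = 8.02e-12). CDC20, its activator in mitosis, had 4248, 4296 and 4133 normalized counts in siYAP cells, against 5445, 5899 and 5966 in siNT cells (log2 fold change -0.45, SE 0.0457, limma adjusted p = 2.30e-08). The groups did not overlap for either gene, with UBE2C at 62.0% and CDC20 at 73.2% of the siNT level.

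**Figure D2:**
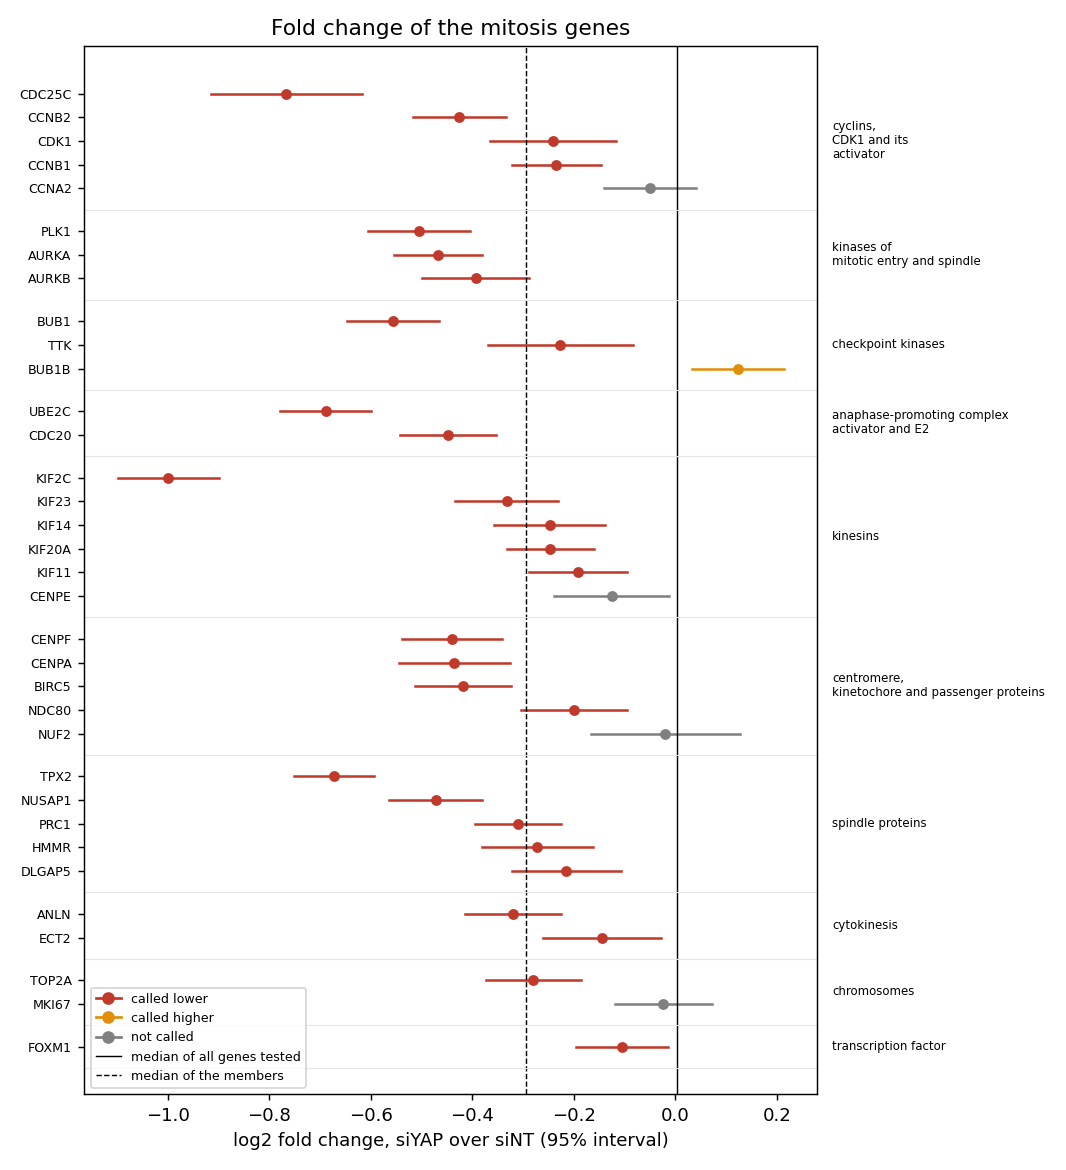
Points are log2 fold changes of siYAP over siNT from limma with 95% intervals, grouped by role and coloured by call, and the vertical lines mark the median of all genes tested (0.0036) and of the members (-0.29). KIF2C lies farthest left at -0.999 and BUB1B alone lies right of 0 as a call, at 0.12.

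The kinesins held both the largest change of the list and an uncalled one. KIF2C, the MCAK kinesin that takes microtubules apart at centromeres, had 2381, 2271 and 2124 normalized counts in siYAP cells, against 4498, 4537 and 4499 in siNT cells. The 3 siNT libraries were nearly equal and all siYAP libraries far below them, at 50.1% of the siNT level (log2 fold change -0.999, SE 0.0481, limma adjusted p = 1.03e-13). This fold change lay at the 2.83 percentile of all genes tested, counted from the largest fall. KIF23, the MKLP1 motor of centralspindlin, fell (log2 -0.33), as did KIF14, a kinesin of cytokinesis (log2 -0.25), and KIF20A, the MKLP2 motor that moves passenger proteins to the midzone (log2 -0.25). KIF11, the Eg5 motor that pushes spindle poles apart, fell by 0.19, with 4151, 4299 and 4473 normalized counts in siYAP cells, against 5108, 4712 and 4941 in siNT cells. Its groups were close but separate, and with equal totals its call was lost (-0.10, adjusted p = 0.0594). CENPE, the kinesin that carries chromosomes to the spindle equator, had 2144, 2304 and 2413 normalized counts in siYAP cells, against 2672, 2380.4 and 2433 in siNT cells and was not called (log2 fold change -0.13, SE 0.0546, limma adjusted p = 0.0549). Its siYAP replicate 3 lay above siNT replicate 2, and without either of these libraries it was called lower (-0.17, adjusted p = 0.0195 without the first, and -0.16, adjusted p = 0.0323 without the second). The difference shrank without siYAP replicate 1 (-0.08, adjusted p = 0.26), without siNT replicate 1 (-0.08, adjusted p = 0.211) and with equal totals (-0.04, adjusted p = 0.587).

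Of the centromere, kinetochore and passenger genes, 4 of 5 were called lower, against 28.1% of all genes tested. CENPA, the centromeric histone H3 variant, had 1011, 961 and 974 normalized counts in siYAP cells, against 1324, 1329 and 1334 in siNT cells (log2 fold change -0.44, SE 0.0526, limma adjusted p = 3.00e-07). CENPF, a large protein of the outer kinetochore, fell (log2 -0.44), and so did BIRC5, which encodes survivin of the passenger complex (log2 -0.42). In all 3 genes the groups were separate. NDC80, the microtubule-binding HEC1 protein, had 1624, 1682 and 1655 normalized counts in siYAP cells, against 1969, 1808 and 1926 in siNT cells (log2 -0.20), and with equal totals its call was lost (-0.11, adjusted p = 0.0614). Its partner in the same complex, NUF2, had 609.9, 608 and 666 normalized counts in siYAP cells, against 683, 580.4 and 649 in siNT cells and was not called (log2 fold change -0.02, SE 0.0709, limma adjusted p = 0.836). The NUF2 groups overlapped, since its lowest library was siNT replicate 2.

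All 5 spindle genes were called lower, with separate groups. Of the 8336 genes with a mean at or above that of the lowest member, 3401 were called lower. In 3516 of them the siYAP libraries lay below all siNT libraries. TPX2, the factor that activates Aurora A and nucleates spindle microtubules, was the member with the most reads, at 15244, 14826 and 14981 normalized counts in siYAP cells, against 23883, 23434 and 24487 in siNT cells (log2 fold change -0.67, SE 0.0382, limma adjusted p = 1.75e-12). It stood at 62.7% of its siNT level. NUSAP1, a microtubule bundler near chromosomes, fell (log2 -0.47), as did PRC1, the cross-linker of the central spindle (log2 -0.31). HMMR, a spindle protein also known as RHAMM (log2 -0.27), and DLGAP5, the HURP protein of kinetochore fibres (log2 -0.21), fell less. The smallest of these falls, that of DLGAP5, rested on 3020.4, 2975 and 3313 normalized counts in siYAP cells, against 3822, 3445 and 3532 in siNT cells.

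Of the cytokinesis genes, ANLN, the anillin scaffold of the contractile ring, had 9060.2, 9576 and 9774 normalized counts in siYAP cells, against 12276, 11133 and 12062 in siNT cells (log2 fold change -0.32, SE 0.0453, limma adjusted p = 2.80e-06). ECT2, the exchange factor that activates RhoA at the cleavage site, had 5063, 5319 and 5628 normalized counts in siYAP cells, against 6533, 5502 and 5687 in siNT cells (log2 fold change -0.14, SE 0.0558, limma adjusted p = 0.0327). The ANLN groups were separate. Those of ECT2 overlapped, and its call was lost without siYAP replicate 1 (-0.11, adjusted p = 0.126), without siYAP replicate 2 (-0.14, adjusted p = 0.0818), without siNT replicate 1 (-0.07, adjusted p = 0.188) and with equal totals (-0.06, adjusted p = 0.423). It was also lost with upper-quartile factors (adjusted p = 0.0657) and without the variance trend and robust fit (adjusted p = 0.206).

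The proliferation marker MKI67, whose Ki-67 protein coats mitotic chromosomes, was not called. It had 8265, 8219.9 and 8933 normalized counts in siYAP cells, against 8359, 8394 and 9075 in siNT cells (log2 fold change -0.02, SE 0.0459, limma adjusted p = 0.697, 95% interval -0.12 to 0.07). Its siYAP replicate 3 was above siNT replicates 1 and 2. TOP2A, the topoisomerase that untangles sister chromosomes, had 8462, 8905 and 9305 normalized counts in siYAP cells, against 11333, 10427 and 10609.9 in siNT cells (log2 fold change -0.28, SE 0.0454, limma adjusted p = 1.68e-05), with separate groups. FOXM1, the transcription factor that activates many of these genes, had 7968, 7627 and 7495 normalized counts in siYAP cells, against 7925, 8457 and 8454 in siNT cells (log2 fold change -0.11, SE 0.0433, limma adjusted p = 0.0438). Its siYAP replicate 1 lay above siNT replicate 1, and the call was lost in limma without siYAP replicate 2 (-0.10, adjusted p = 0.144), siYAP replicate 3 (-0.09, adjusted p = 0.149), siNT replicate 2 (-0.09, adjusted p = 0.146) or siNT replicate 3 (-0.09, adjusted p = 0.155). It was also lost with TMM factors (adjusted p = 0.0513), upper-quartile factors (adjusted p = 0.088) and equal totals (-0.02, adjusted p = 0.744), without the variance trend and robust fit (adjusted p = 0.138) and in edgeR (adjusted p = 0.0691). The falls of CCNB1, KIF14, KIF20A and DLGAP5 shrank with equal totals (log2 -0.15, -0.16, -0.16 and -0.13) and stayed called, and the BUB1B rise grew (log2 0.21). The signs of the uncalled CCNA2, MKI67 and NUF2 turned positive with equal totals (0.04, 0.06 and 0.07 on the log2 scale).

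Members of a pair were compared within each library as the log2 ratio of their normalized counts, which does not depend on the scaling of libraries. The pairs, 6 in all, were chosen among members of one family or of related steps, and with 3 libraries a group the smallest p of an exact two-sided permutation test is 0.1, so none could pass. BUB1 over BUB1B was 0.03, -0.03 and -0.05 in siYAP cells, against 0.70, 0.65 and 0.64 in siNT cells (difference -0.68). The ratio was lower in every siYAP library than in any siNT library. CENPE over KIF2C was -0.15, 0.02 and 0.18 in siYAP cells, against -0.75, -0.93 and -0.89 in siNT cells (difference 0.87). CDC20 over CDC25C was higher in siYAP cells by 0.32, CCNB1 over CCNB2 by 0.19 and CCNA2 over CCNB1 by 0.18 on the log2 scale. In these 5 pairs the groups did not overlap (exact permutation p = 0.1 each, adjusted 0.12). Separate groups were common in these data: of single genes tested, 30.6% had all siYAP libraries below and 30.9% above. The share over other pairs of genes was not computed. AURKA over AURKB overlapped between groups, at 0.28, 0.36 and 0.45 in siYAP cells, against 0.54, 0.36 and 0.41 in siNT cells (exact permutation p = 0.5, adjusted 0.5).

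**Figure D3:**
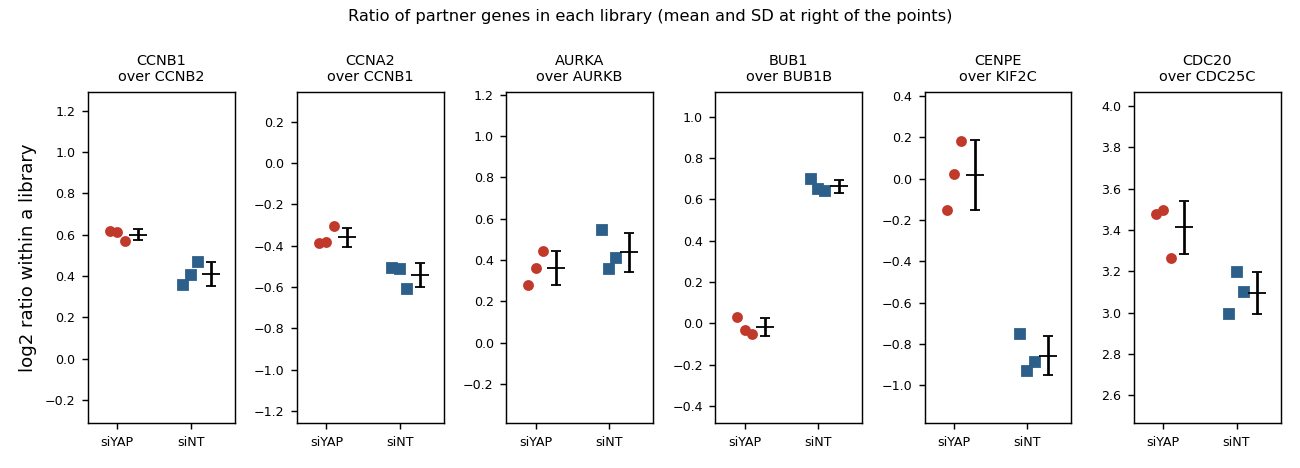
Each panel shows the log2 ratio of a pair in each library (red circles siYAP, left; blue squares siNT, right), with the mean and SD of the 3 libraries beside the points; the axes start at different values and span the same range. The groups are separate in every panel except that of AURKA over AURKB.

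Compared per kb of annotated exon, the members spanned a wide range of levels. TPX2 was highest, at 4166 normalized counts per kb in siYAP cells and 6639 in siNT cells, followed by UBE2C at 3580.0 normalized counts per kb in siYAP cells and 5772 in siNT cells and CDC20 at 2073 normalized counts per kb in siYAP cells and 2831 in siNT cells. NUF2 was lowest in siNT cells, at 189.6 normalized counts per kb, and CDC25C lowest in siYAP cells, at 119. Both TPX2 and CDC25C, near opposite ends of this range, were among the 6 members with a log2 fold change of -0.5 or less, the others being KIF2C, UBE2C, BUB1 and PLK1. Over the 34 members the level per kb and the log2 fold change had a Spearman correlation of -0.24 (Pearson -0.22 on log2 levels), a description over genes that share the same 6 libraries.

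**Figure D4:**
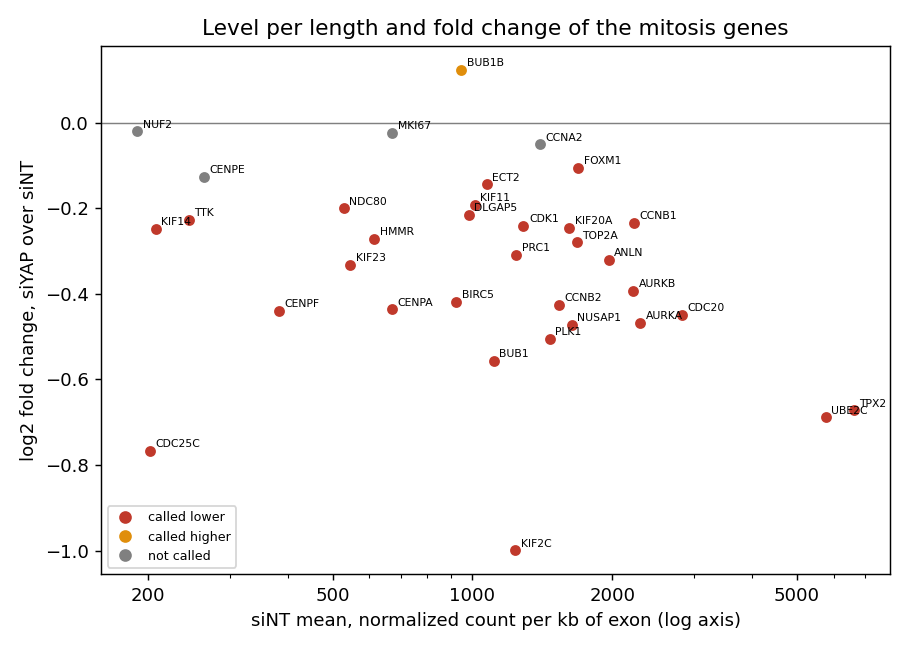
Each point is a member, placed by its mean normalized count per kb of exon in siNT cells (log axis) and its log2 fold change of siYAP over siNT, coloured by call. The largest fall, that of KIF2C, lies in the middle of the range of levels.

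The libraries of a group were close to each other in these genes. The coefficient of variation of a member over 3 libraries had a median of 3.47% in siYAP cells (0.482% to 7.09%) and 4.002% in siNT cells (0.396% to 12.3%). Over the members, the median log2 value relative to the siNT mean was -0.33, -0.29 and -0.26 in the siYAP libraries, against 0.036, -0.041 and 0.0063 in the siNT libraries. Of the 34 members, 22 had their lowest siNT value in replicate 2 and 20 their highest in replicate 1, so that the siNT libraries differed from each other in the same direction over many members. Among the siYAP libraries, 19 members were highest in replicate 3 and 2 in replicate 2. For the median over members, this spread was small beside the difference between the groups. In single members it could be larger. The siNT values of ECT2 ran from 5502 to 6533 normalized counts, with group means of 5337 in siYAP cells and 5907 in siNT cells.

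The wider machinery of mitosis was also lower more often than higher. Of 88 other mitosis genes, chosen by their role and all measured, 59 were called lower (67.0%), 6 higher and 23 not called. Over all genes tested, 28.1% were called lower and 28.6% higher. Among genes with a mean at or above that of the lowest member, 40.8% were lower and 30.9% higher. The 88 genes had a median log2 fold change of -0.32. The largest falls were in CIT, the citron kinase of the midbody (log2 fold change -0.998, SE 0.0493, limma adjusted p = 1.56e-13), LIN52, a subunit of MuvB (log2 -0.91), and CDC23, a subunit of the anaphase-promoting complex (log2 -0.91). The largest rises were in LIN54, the DNA-binding subunit of MuvB (log2 0.38), WEE1, the kinase that holds CDK1 inactive (log2 0.34), and NSL1, a subunit of the MIS12 complex at kinetochores (log2 0.33).

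By complex, the partners of the members mostly went the same way. These complexes hold few genes each, and over all genes tested 28.1% were called lower and 28.6% higher. In the chromosomal passenger complex all 4 subunits fell: AURKB and BIRC5 among the members, and the scaffold INCENP (2894, 2843 and 2673 normalized counts in siYAP cells, against 4704, 4959 and 5063 in siNT cells) and borealin, CDCA8 (2224, 2246 and 2181 normalized counts in siYAP cells, against 3651, 3666 and 3889 in siNT cells). Both had separate groups (log2 -0.81 for INCENP and log2 -0.75 for CDCA8). In centralspindlin, RACGAP1, the GTPase-activating partner of KIF23, fell by 0.46. Of the NDC80 complex, SPC24 fell (log2 -0.42) beside NDC80, while SPC25 (log2 -0.10, limma adjusted p = 0.217) and NUF2 were not called. Of the factors that load CENPA, the chaperone HJURP (log2 -0.75), MIS18A (log2 -0.67) and OIP5 (log2 -0.57) fell. Among checkpoint proteins that work with BUB1 and BUBR1, BUB3 (log2 -0.50), MAD1L1 (log2 -0.31) and MAD2L1 (log2 -0.44) fell.

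**Figure D5:**
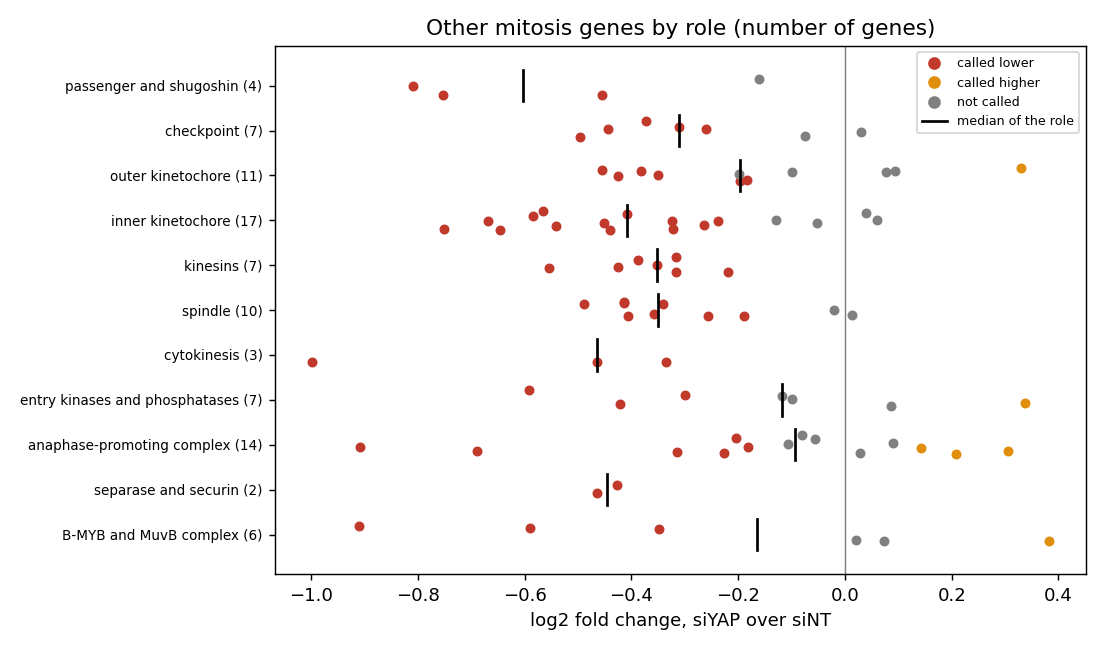
Each point is the log2 fold change of siYAP over siNT of 1 of the 88 other mitosis genes, by role and coloured by call, with a black bar at the median of the role. Points of every role except the anaphase-promoting complex, the entry kinases and phosphatases, the outer kinetochore and MuvB are lower or not called.

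Some members overlap another gene in their spans, and whether their exons overlap was not examined. Reads from exons that overlap on opposite strands cannot be told apart unless the strand was used in counting. The sources used here do not give the strand setting. For exons that overlap on the same strand, the strand would not separate the reads. The gene spans of 10 members overlap another gene of the table in GENCODE 29 on GRCh38. KIF20A overlaps CDC23, which fell more than it did (log2 -0.91), and BRD8 (log2 -0.27), both on the other strand. FOXM1 overlaps RHNO1 (log2 -0.28) and ITFG2 (log2 -0.22), and CCNA2 overlaps EXOSC9 (log2 -0.22), all on the other strand. CENPA overlaps SLC35F6 on the same strand, which was higher in siYAP cells (log2 0.17) while CENPA was lower. The antisense gene within KIF2C had 204.4 normalized counts in siYAP cells and 307.6 in siNT cells, far fewer than KIF2C itself. ANLN (MATCAP2), CDC25C (FAM53C), KIF23 (KIF23-AS1), PRC1 (PRC1-AS1) and NUF2 (RGS5) also have such neighbours.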

How the data were processed

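The submitters' processing notes name HISAT2, HTSeq, FastQC and DESeq2 and the builds mm9 and hg19. Versions, annotation, strand setting and gene filter are not stated there or elsewhere in the labels. The authors deposited one signal value per gene and library, a read count divided by a size factor: 100% of values per library came out as whole reads, to a tolerance of 0.01, when divided by the smallest positive value. Log2(value + 1) was fitted with limma 3.58.1 (trend, robust; R 4.3.3) with group alone, keeping genes that reached 1 in 3 or more libraries, and adjusted by Benjamini-Hochberg over 17200 genes. Changes of low genes are understated on this log2(value + 1) scale. Alternatives included edgeR 4.0.16 and DESeq2 1.42.0 on the recovered reads; those for the pair ratios were chosen after seeing the data. The fit was also run on simulated counts, with few genes changed, equally up and down, and noise independent between genes. Far more genes were called in these data, so that run does not bear on the calls given here.

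Symbols came from a table of Ensembl identifiers (16662 of 17211 matched), exon lengths from GENCODE 29 and promoters from RefSeq (28 of 34 members matched). The members, the role groups, the other mitosis genes and the marker lists were chosen with earlier results of these data known. Named genes were all members, the 3 largest falls and 3 largest rises called among the other mitosis genes whose mean reached 50, and partners of members in a complex.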

Additional observations from a re-analysis of the deposited data

How the results depend on the processing

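The fall of the members held in direction under the 17 alternatives run: 24 to 29 were called lower, fewest with equal totals, and their median log2 fold change was -0.21 with equal totals and -0.31 to -0.27 under the others. Relative to the median of all genes, which equal totals moved by 0.086, the members' median was -0.30 with the deposited factors and with equal totals. Scaling moves the log2 fold changes of all genes nearly alike, so this equality was fixed in advance and is no check of the scaling. The count of members called higher was 0 without the variance trend and robust fit and 0 with the replicate block, and 0 to 1 when each library was left out. With equal totals, 13 of the other mitosis genes were called higher. The replicate numbers did not pair the libraries (correlations of same-numbered deviations -0.053, -0.0059 and 0.0011), and with the number as a block 27 members were called lower, against 29, with the calls of BUB1B (adjusted p = 0.0728), ECT2 (0.0706) and FOXM1 (0.13) lost. Of 578 values for single members under an alternative, 548 kept their side of the threshold and none that was called reversed. edgeR called 28 members lower and 1 higher, DESeq2 29 and 1. The members had 385 to 22808 reads per library, so that depth limits them little.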

Other observations

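Subunits of 2 complexes named above went both ways. Of 14 genes of the anaphase-promoting complex and its regulators, 6 were lower, 3 higher and 5 not called (ANAPC1, ANAPC10, ANAPC11, CDC16 and CDC26, at log2 -0.11 to 0.09). Over all genes tested, 28.1% were called lower and 28.6% higher. Among genes with a mean at or above that of the lowest member, the shares were 40.8% and 30.9%. Calls in both directions were thus common in these data and not particular to this complex. CDC23 fell (log2 -0.91) along with ANAPC7 (log2 -0.20) and ANAPC2 (log2 -0.18), whereas ANAPC4 (log2 0.30), ANAPC5 (log2 0.21) and CDC27 (log2 0.14) were called higher by limma. The E2 enzyme UBE2S, which extends the chains that UBE2C starts, had 2537, 2464 and 2199 normalized counts in siYAP cells, against 3430.4, 4069 and 4126 in siNT cells, a fall of 0.69 on the log2 scale. FBXO5, the inhibitor EMI1, fell by 0.31, and the activator FZR1, also known as CDH1, fell by 0.23. The subunits were named after their values were seen.

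In the MuvB complex, LIN52 (227, 224 and 219.7 normalized counts in siYAP cells, against 442, 428 and 394 in siNT cells), LIN9 (log2 -0.35) and RBBP4 (log2 -0.59) fell and LIN54 rose, while LIN37 (log2 0.07) and the partner MYBL2, which encodes B-MYB (log2 0.02), were not called. MYBL2 was at 13729 ± 410.4 normalized counts in siYAP cells and 13543 ± 658 in siNT cells (SD, n = 3 each). Separase, ESPL1, and securin, PTTG1, which together govern the parting of sister chromatids, both fell (log2 -0.47 and log2 -0.43).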
